A study of Mus musculus with 6 samples.

Results

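The genes described here are 10 genes grouped under the label of quiescence factors, a role not tested here. They are the KLF zinc finger genes Klf2, Klf3, Klf6 and Klf13, the forkhead genes Foxo1, Foxo3 and Foxp1, the antiproliferative genes Btg1 and Btg2, and Txnip. They were chosen by symbol, with earlier results of these data known. Each matched 1 Ensembl row, and together they are 10 of the 37991 genes counted. RNA was sequenced from natural killer (NK) cells of mouse spleen, sorted as CD27+ CD11b+, a stage on the way to full maturity, from animals of the C57BL6 background. The Rroid-deficient group has 3 libraries and the wildtype group 3. Rroid is a noncoding transcript from an element that regulates the nearby gene Id2. The labels give neither the way the deficiency was made nor the age and number of the mice. They also do not tie libraries to separate animals, so p-values measure the spread between these libraries, which may be technical. In RNA of a sorted population, fewer expressing cells and less RNA per cell cannot be told apart.

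Quiescence of lymphocytes is an actively held state. KLF2 and the FOXO factors keep up genes for circulation and survival, and FOXO proteins leave the nucleus once PI3K and AKT signalling phosphorylates them. BTG1 and BTG2 bring the CCR4-NOT deadenylase to messenger RNAs and speed their decay, which keeps RNA content low in resting T cells. TXNIP, an arrestin-fold protein, binds thioredoxin and limits glucose uptake, and its gene is switched on by the glucose-sensing factor MondoA.

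Assigned reads ranged from 6146465 to 7363793 in the Rroid-deficient libraries and from 5823626 to 9216430 in the wildtype libraries. The labels' check was Id2, with 38.9, 66.7 and 81.2 CPM (a gene's share of the assigned reads, with library sizes scaled by TMM) in Rroid-deficient libraries 1 to 3, against 468, 338 and 342 CPM in wildtype libraries 1 to 3 (log2 fold change -2.62; adjusted p = 0.0308 in edgeR). All 15 NK cell markers were detected, with summed levels of 12466 to 13205 CPM in Rroid-deficient and 14326 to 16934 CPM in wildtype libraries. T cell markers summed to 391 to 489 CPM in Rroid-deficient and 214 to 314 CPM in wildtype libraries. Of these 14 T cell markers, 7 were tested, and Cd6 and Cd8a had no count in any library. Cd3e had counts of 0, 0 and 0 in Rroid-deficient and 0, 3 and 0 in wildtype libraries. Of the 7 tested, 6 had a positive and 1 a negative log2 fold change, with a median of 1.302. Every Rroid-deficient library lay above every wildtype library in 3 of the 7, against 6.03% of all tested genes, and below in 0. Cd3g and Cd3d are among these 3. B cell markers summed to 3.92 to 15.2 CPM in Rroid-deficient and 5.82 to 15.6 CPM in wildtype libraries, with Pax5 and Blk at 0 in every library. Erythroid and platelet markers summed to 1.47 to 8.02 CPM in Rroid-deficient and 9.13 to 18.9 CPM in wildtype libraries. Myeloid markers summed to 380.4 to 438 CPM in Rroid-deficient and 419.5 to 502 CPM in wildtype libraries, nearly all of it Itgax, with Cd14 and S100a8 at 0 in every library. The part of the T cell and NK marker differences in the values below was not tested. Without Gzma the NK marker sums overlapped, at 9826 to 10890.0 CPM in Rroid-deficient and 10235 to 12125 CPM in wildtype libraries. Gzma had the smallest p of the NK markers in edgeR. It was 1 of 5 NK markers that lay lower in every Rroid-deficient library, while 1 lay higher. Replicate 1 of each genotype had the most tested genes at a count of 0, 5.57% in Rroid-deficient 1 and 5.63% in wildtype 1, against 0.23% to 2.43% in the other libraries.

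Txnip, Foxo3 and Klf2 were lower in every Rroid-deficient library than in any wildtype library, and none of the 10 genes passed the test across the transcriptome. The quasi-likelihood test of edgeR, with p adjusted by Benjamini-Hochberg over the 11724 genes tested, passed 0 of the 10 at 0.05. Of all tested genes 0.0171% passed, 0.00853% as lower and 0.00853% as higher. Adjusted p ranged from 0.641 for Txnip to 0.997 for Klf6. An unadjusted p under 0.05 was found for 2 of the 10, Txnip and Foxo3, against 5.29% of all tested genes. Both lay lower, as did 2.52% of all tested genes at that p. Libraries of the genotypes did not overlap, on the lower side, in 3 of the 10 genes, against 6.33% of all tested genes. On the higher side this was so in 0 of the 10, against 6.03%. Because the 10 were chosen with earlier results of these data known, these comparisons with all tested genes are a description. DESeq2 on the same genes also passed 0 of the 10, with Txnip nearest at an adjusted p of 0.0536, as did limma-voom with and without sample weights. The median log2 fold change of the 10 genes was -0.068, against 0.024 over all tested genes, with 5 above and 5 below 0, where 48.4% of all tested genes lay below 0. Without Rroid-deficient library 1 that median was -0.276, and without wildtype library 1 it was 0.047.

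**Figure D1:**
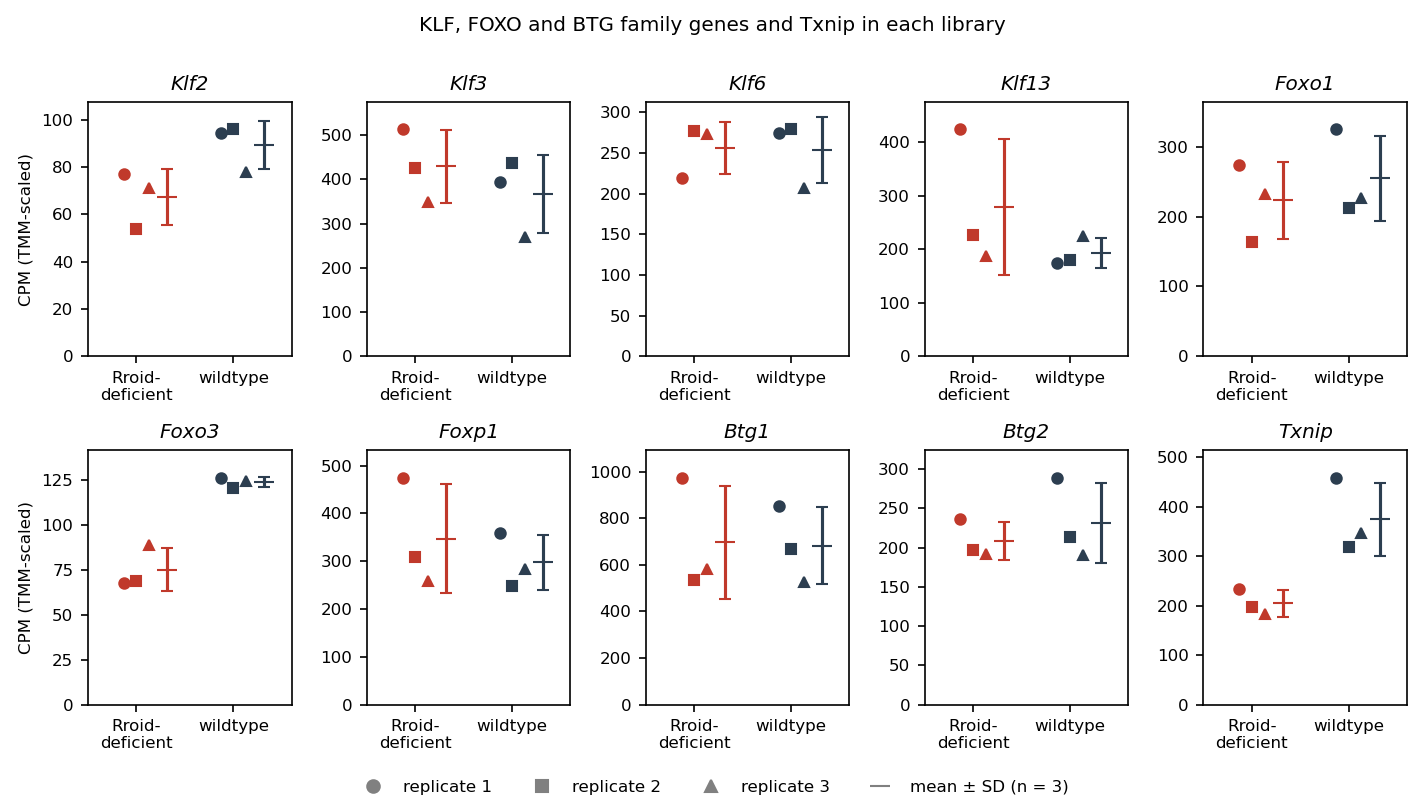
Level of each of the 10 genes in CPM (linear axis from 0) in the 3 Rroid-deficient libraries and, to the right, the 3 wildtype libraries; symbols mark replicates and the bar gives mean ± SD. The groups are apart for Klf2, Foxo3 and Txnip and overlap for the other genes.

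The 10 genes were well covered, with raw counts of 331 to 6757 in every library, and took 0.245% to 0.329% of assigned reads in Rroid-deficient and 0.271% to 0.31% in wildtype libraries. Their levels were set side by side per kilobase of annotated exon. Btg1 had the highest mean in both genotypes, at 132 ± 45.9 CPM per kilobase in Rroid-deficient and 129 ± 31.1 in wildtype libraries (SD, n = 3 each), and Foxo3 the lowest, at 9.92 ± 1.56 in Rroid-deficient and 16.3 ± 0.379 in wildtype libraries. Txnip ranked 3 in Rroid-deficient libraries, at 65.6 ± 8.61 CPM per kilobase, and 2 in wildtype libraries, at 120.0 ± 23.9. Btg2 took rank 2 in Rroid-deficient libraries, at 76.0 ± 8.97 CPM per kilobase, and rank 3 in wildtype libraries, at 84.3 ± 18.8. Klf6 held rank 4 in both, at 58.3 ± 7.36 CPM per kilobase in Rroid-deficient and 57.7 ± 9.13 in wildtype libraries. Ranges over libraries overlapped between most neighbours in this order. In Rroid-deficient libraries the ranges of neighbours were apart only between Btg1 and Btg2, Klf6 and Klf3, and Foxp1 and Foxo3. In wildtype libraries they were apart only between Btg2 and Klf6, Klf2 and Klf3, and Foxp1 and Foxo3. Some neighbours with overlapping ranges kept their order within each library. Btg2 lay above Txnip and Klf2 above Foxo1 in 3 of 3 Rroid-deficient libraries. Txnip lay above Btg2 and Klf6 above Klf2 in 3 of 3 wildtype libraries.

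**Figure D2:**
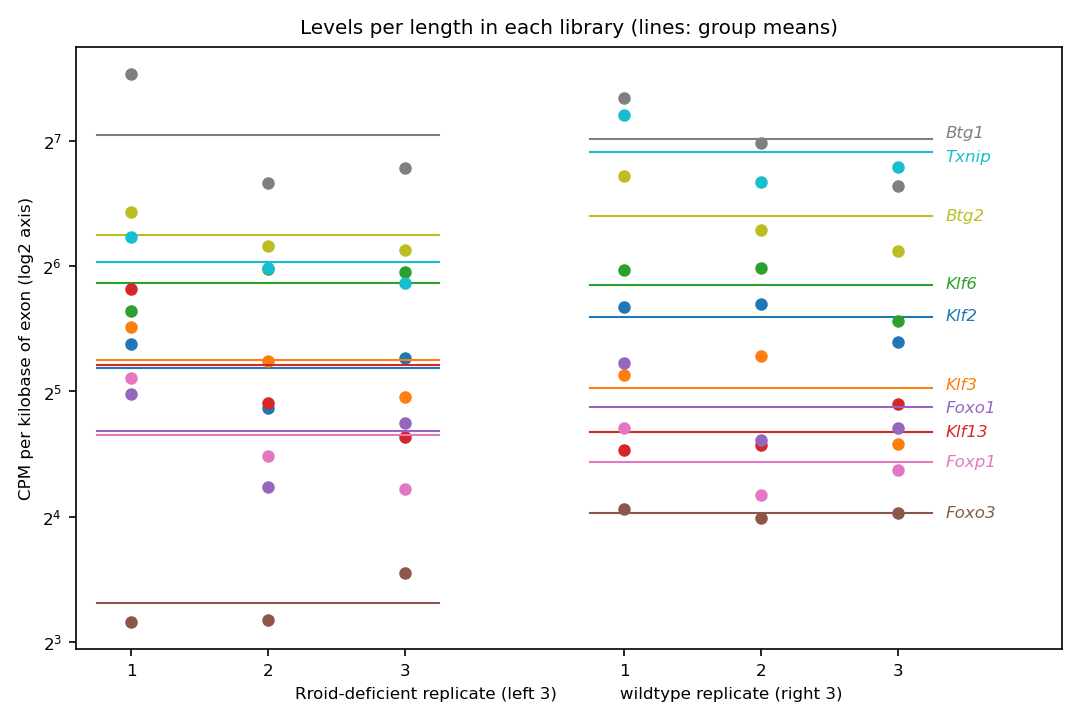
CPM per kilobase of exon (log2 axis) of the 10 genes in each library, Rroid-deficient replicates on the left and wildtype replicates on the right, with horizontal lines at group means. Btg1 had the highest mean in both genotypes, Foxo3 was the lowest in each library, and Txnip lies below Btg2 in all 3 Rroid-deficient libraries and above it in all 3 wildtype libraries.

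Txnip had 235, 197 and 182 CPM in Rroid-deficient libraries 1 to 3, against 459, 318 and 346 CPM in wildtype libraries 1 to 3. The highest Rroid-deficient library lay below the lowest wildtype library. The means were 205 ± 26.9 CPM in Rroid-deficient and 375 ± 74.6 CPM in wildtype libraries (SD, n = 3 each), a log2 fold change of -0.87 (SE 0.21, 95% interval -1.35 to -0.40), or 1.83-fold lower. Its unadjusted p of 0.00213 ranked 38 among the 11724 genes, and the edgeR adjusted p was 0.641. A ratio of counts within a library does not depend on scaling between libraries. For Txnip over Btg2 it was 0.99, 1.00 and 0.948 in Rroid-deficient libraries, against 1.59, 1.49 and 1.82 in wildtype libraries. The genotypes did not overlap in this ratio, which was chosen after the values were seen.

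Txnip shares part of its locus with Gm15441, a gene annotated on the opposite strand. In the GRCm38 annotation 606 of the 3123 exonic bases of Txnip, 19.4%, also belong to Gm15441. Since it is not stated whether counting used strand, reads of these genes cannot be told apart with certainty. Gm15441 had counts of 229, 260 and 310 in Rroid-deficient libraries, against 1265, 802 and 609 in wildtype libraries (log2 fold change -1.65, SE 0.37; adjusted p = 0.572 in edgeR). The genotypes did not overlap for this gene either. For each read of Gm15441, Txnip had 7.11, 4.65 and 4.25 reads in Rroid-deficient libraries, against 2.42, 3.70 and 3.61 in wildtype libraries. This ratio lay higher in every Rroid-deficient library.

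Foxo3 had 67.9, 68.7 and 88.8 CPM in Rroid-deficient libraries 1 to 3, against 126, 121 and 124 CPM in wildtype libraries 1 to 3. The wildtype libraries were close together, and all Rroid-deficient libraries lay below them. The means were 75.1 ± 11.8 CPM in Rroid-deficient and 124 ± 2.87 CPM in wildtype libraries (SD, n = 3 each). On the log2 scale the difference was -0.72 with an SE of 0.26 and a 95% interval from -1.30 to -0.14. The unadjusted p of 0.0197 ranked 251 among the genes tested, and edgeR gave an adjusted p of 0.906. Foxo1, the paralog that in mouse NK cells restrains maturation and T-bet, had 273, 164 and 233 CPM in Rroid-deficient libraries, against 325, 212 and 227 CPM in wildtype libraries. The genotypes overlapped (log2 fold change -0.19, SE 0.26; adjusted p = 0.939 in edgeR). The ratio of Foxo3 to Foxo1 counts was 0.249, 0.419 and 0.382 in Rroid-deficient libraries, against 0.389, 0.568 and 0.548 in wildtype libraries, so that the genotypes overlapped in this ratio. In the GRCm38 annotation Foxo1 shares 674 exonic bases, 7.78%, with Gm20402 on the opposite strand. As the use of strand is not stated, it is not known whether their reads were told apart there.

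Foxp1, a forkhead factor that keeps naive T cells quiescent, had 475, 308 and 257 CPM in Rroid-deficient libraries, against 359.5, 248 and 285 CPM in wildtype libraries. Rroid-deficient library 1 stood above the other 5 and the genotypes overlapped (log2 fold change 0.22, SE 0.26; adjusted p = 0.936 in edgeR). Without that library the log2 fold change was -0.08. Foxp1 shares 300 exonic bases, 2.18%, with Gm20696 in the same annotation.

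Klf2, which sustains expression of the egress receptor S1PR1 in T cells, had 77.0, 54.0 and 71.1 CPM in Rroid-deficient libraries, against 94.2, 95.9 and 77.9 CPM in wildtype libraries. The genotypes did not overlap, but the closest libraries, at 77.0 CPM in Rroid-deficient 1 and 77.9 CPM in wildtype 3, were nearly level. The difference on the log2 scale was -0.41 with an SE of 0.30 and a 95% interval from -1.06 to 0.25. It had an unadjusted p of 0.197 and, in edgeR, an adjusted p of 0.925. Klf13, a KLF factor that activates Ccl5 in T cells, had 424, 227 and 188 CPM in Rroid-deficient libraries, against 174, 179 and 225 CPM in wildtype libraries. Rroid-deficient library 1 stood above the other 5, and the log2 fold change, at 0.54 (SE 0.30; adjusted p = 0.925 in edgeR), was 0.10 without it. Klf3, a repressor that works through CtBP, had 513, 426 and 348 CPM in Rroid-deficient libraries, against 394, 437 and 269 CPM in wildtype libraries. Klf6, a factor induced early by many stimuli, had 219, 277 and 273 CPM in Rroid-deficient libraries, against 275, 279 and 207 CPM in wildtype libraries. Both overlapped between genotypes, with log2 fold changes of 0.22 (SE 0.23) for Klf3 and 0.01 (SE 0.21) for Klf6. For Klf6 the 95% interval ran from 0.731-fold to 1.39-fold of the wildtype level, which bounds the change these libraries allow.

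Btg1 had 974, 534 and 579.7 CPM in Rroid-deficient libraries, against 853, 665 and 527 CPM in wildtype libraries. Btg2 had 237, 197 and 192 CPM in Rroid-deficient libraries, against 289, 214 and 191 CPM in wildtype libraries. For both genes replicate 1 was the highest of its genotype and the ranges overlapped. The log2 fold changes were 0.03 (SE 0.26; adjusted p = 0.993 in edgeR) for Btg1 and -0.15 (SE 0.23; adjusted p = 0.945 in edgeR) for Btg2. The 95% intervals of the fold ran from 0.686 to 1.52 for Btg1 and from 0.637 to 1.28 for Btg2.

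**Figure D3:**
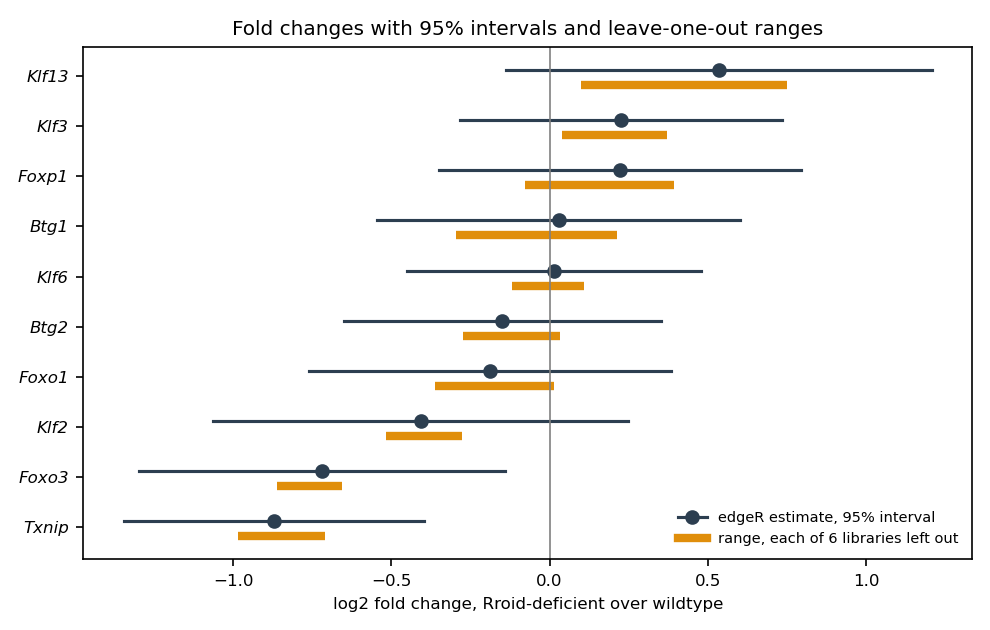
Log2 fold change of each gene, Rroid-deficient over wildtype, from edgeR with its 95% interval (points and thin lines), and the range of estimates when each of the 6 libraries was left out in turn (thick bars). Intervals lie below 0 for Txnip and Foxo3 and include 0 for the other 8 genes.

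The 250 bases before the annotated start are printed for the 3 genes whose libraries did not overlap, because they are where regulators of these genes would be looked for. They are RefSeq sequence of build GRCm38.p6, matched by symbol, and capitals mark the letters CACCC (bound by KLF factors), GTAAACA (forkhead factors), CCAAT (NF-Y) and CACGAG (repeated in the element that MondoA binds), on either strand.
Txnip (chr3:96557707-96557956, plus strand): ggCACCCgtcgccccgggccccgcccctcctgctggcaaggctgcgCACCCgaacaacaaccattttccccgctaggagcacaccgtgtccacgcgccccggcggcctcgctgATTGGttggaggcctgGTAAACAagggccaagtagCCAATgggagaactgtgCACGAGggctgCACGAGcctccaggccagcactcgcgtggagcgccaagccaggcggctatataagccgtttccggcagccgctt
Foxo3 (chr10:42276696-42276945, minus strand): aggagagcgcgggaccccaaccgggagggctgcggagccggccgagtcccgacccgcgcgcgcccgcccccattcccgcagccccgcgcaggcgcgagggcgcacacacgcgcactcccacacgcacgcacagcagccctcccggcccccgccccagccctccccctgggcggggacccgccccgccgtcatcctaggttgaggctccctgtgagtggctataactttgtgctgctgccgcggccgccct
Klf2 (chr8:72318812-72319061, plus strand): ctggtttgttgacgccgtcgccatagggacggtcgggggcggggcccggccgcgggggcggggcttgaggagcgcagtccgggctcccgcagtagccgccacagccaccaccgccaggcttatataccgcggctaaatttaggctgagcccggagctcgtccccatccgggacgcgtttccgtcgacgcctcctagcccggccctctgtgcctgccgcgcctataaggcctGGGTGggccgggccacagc
The Txnip window holds CACGAG at 85 and 74 bases before the start, a pair separated by 5 bases. Of 32851 promoter windows of this length it was the 1 window with such a pair, or 0.00304%. The search was for exact copies of CACGAG at that spacing, which are the letters of the Txnip window itself. Its own match is therefore not a finding, and variant letters were not searched. For both reasons the share does not tell how rare MondoA sites are. CACGAG in any number was present in 5.37% of windows. The same window holds GTAAACA 121 bases before the start, a match found in 3.17% of windows, CACCC at 248 and 204 bases (52.0% of windows hold 1 or more) and CCAAT at 137 and 102 bases (33.8%). The Klf2 window holds 1 match, to CACCC, and the Foxo3 window none of these letters. The E box CANNTG, the general letters bound by E proteins, which ID2 inhibits, was in 66.2% of windows and in none of these 3. Windows were present for all 10 genes, 12 in all, and GTAAACA was also found for Btg1, 204 bases before its start. These matches describe the letters of the windows and were not linked to binding in these cells.

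Several of the 10 genes were highest in the same libraries. Replicate 1 was the highest Rroid-deficient library in 8 of the 10 genes, against 46.3% of the 1758 tested genes at 100 CPM or more, and the highest wildtype library in 6 of the 10, against 49.5%. Both are the libraries with most tested genes at 0, and the part of that in these levels was not tested. Across the 6 libraries, which differ in genotype and in depth, log2 CPM of the pairs correlated at a median Pearson r of 0.30, with 31 of 45 pairs positive. The pairs with the highest r were Btg1 with Btg2 at 0.834, Foxo3 with Txnip at 0.82, Foxo1 with Btg2 at 0.793 and Foxp1 with Btg1 at 0.79. Klf13 and Foxo3 had the lowest r, at -0.676. For the 3 genes of highest mean CPM the most alike patterns were sought among 6154 other tested genes at 20 CPM or more. Over the 6 libraries, Btg1 was most like Arid1b (r = 0.991), Gm10250 (0.99) and Rinl (0.985). Klf3 was most like Bcl6 (0.989), Actb (0.968) and Rps6-ps4 (0.957). Foxp1 was most like Sh2d2a (0.995), Ptpn11 (0.989) and Zfpm1 (0.987). These likenesses are a description of 6 libraries.

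Most other KLF genes were at low levels, and Klf12 lay lower in every Rroid-deficient library. Of 13 genes, 8 were tested, Klf1, Klf5, Klf15 and Klf17 had no count in any library, and Klf14 had 1 count in all. None of the 8 passed. Of these 8, 4 (Klf8, Klf9, Klf11 and Klf16) met the expression filter only through the wildtype libraries, which favours genes that are lower in Rroid-deficient libraries, and Klf4 met it only through the Rroid-deficient libraries. The counts over the 8 are therefore a description: 2 had an unadjusted p under 0.05, both lower, where 2.52% of all tested genes did, and 7 had a negative log2 fold change, where 48.4% of all tested genes did. The median of the 8 was -0.927, and -1.81 without Rroid-deficient library 1. Klf16 had counts of 5, 7 and 11 in Rroid-deficient libraries, against 81, 76 and 27 in wildtype libraries (log2 fold change -2.84, SE 1.05; adjusted p = 0.906 in edgeR). Klf12, a repressor gene at a higher level, had counts of 321, 443 and 417 in Rroid-deficient libraries, against 765, 675 and 797 in wildtype libraries. Its means were 58.7 ± 13.0 CPM in Rroid-deficient and 104 ± 27.9 CPM in wildtype libraries (log2 fold change -0.83, SE 0.33; adjusted p = 0.914 in edgeR). Klf12 met the filter in both genotypes, and its libraries did not overlap. Klf10, a TGF-beta-inducible gene, was the 1 tested gene of the list with a positive log2 fold change, at 76.3 ± 37.1 CPM in Rroid-deficient and 58.3 ± 7.95 CPM in wildtype libraries.

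Of 13 other forkhead genes, 10 were tested and none passed. Of these 10, 4 had a positive and 6 a negative log2 fold change, with a median of -0.287. The expression filter was met in both genotypes by 8, only through the Rroid-deficient libraries by 1 and through neither genotype alone by 1. Foxj3 had 108 ± 7.64 CPM in Rroid-deficient and 157 ± 48.2 CPM in wildtype libraries. Foxk1, which acts in metabolism and autophagy, had 145 ± 14.4 CPM in Rroid-deficient and 211 ± 87.6 CPM in wildtype libraries. Without wildtype library 1 the median of this list was 0.171. Foxo4, the further FOXO gene detected, had 13.5 ± 7.70 CPM in Rroid-deficient and 19.2 ± 14.6 CPM in wildtype libraries, and Foxo6 had no count in any library.

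BTG relatives and the CCR4-NOT complex, the machinery through which BTG proteins act, had 17 of 18 genes tested and none that passed. The expression filter was met in both genotypes by 15, only through the Rroid-deficient libraries by 1 and only through the wildtype libraries by 1. The median log2 fold change was 0.018, with 9 positive and 8 negative. It ranged from -0.173 without Rroid-deficient library 2 to 0.113 without Rroid-deficient library 3, and was also negative without wildtype library 2 or 3. Cnot6l, a catalytic deadenylase subunit, had 3983, 3091 and 2666 counts in Rroid-deficient libraries, against 1749, 2121 and 1814 in wildtype libraries. Its means were 482 ± 104 CPM in Rroid-deficient and 258 ± 29.0 CPM in wildtype libraries, with no overlap (log2 fold change 0.90, SE 0.21; adjusted p = 0.572 in edgeR). DESeq2 on the filtered genes gave it an adjusted p of 0.0283 and edgeR without a filter 0.0324, and the other alternatives between 0.256 and 0.999. Pabpc1, the poly(A)-binding protein gene, had 1240 ± 229 CPM in Rroid-deficient and 1006 ± 125 CPM in wildtype libraries. Tob1, a BTG relative that holds T cells at rest, had 51.1 ± 8.77 CPM in Rroid-deficient and 70.1 ± 19.1 CPM in wildtype libraries.

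Genes of the thioredoxin system and the arrestin relatives of Txnip had 13 of 16 genes tested and none that passed. Log2 fold changes were negative in 9 and positive in 4, with a median of -0.354, where 48.4% of all tested genes lay below 0. Arrb2, a beta-arrestin gene, had 88.9 ± 18.8 CPM in Rroid-deficient and 142 ± 36.4 CPM in wildtype libraries. Txnrd1, the cytosolic thioredoxin reductase, had 38.4 ± 7.58 CPM in Rroid-deficient and 68.2 ± 13.3 CPM in wildtype libraries. In both the genotypes did not overlap, with unadjusted p of 0.04 for Arrb2 and 0.0434 for Txnrd1 (edgeR adjusted p = 0.914 for each). Of the 13 tested, 3 lay lower in every Rroid-deficient library, against 6.33% of all tested genes. On the higher side this was so in 1, against 6.03%. That gene was Txnrd2, with 10.4 ± 1.75 CPM in Rroid-deficient and 3.85 ± 1.79 CPM in wildtype libraries. The MondoA gene Mlxip had 158 ± 4.71 CPM in Rroid-deficient and 188 ± 52.5 CPM in wildtype libraries, and its partner Mlx 24.9 ± 1.61 CPM in Rroid-deficient and 24.8 ± 3.31 CPM in wildtype libraries. Arrdc4, another gene that MondoA activates, had counts of 172, 0 and 30 in Rroid-deficient libraries, against 0, 47 and 129 in wildtype libraries, which overlapped.

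Known targets of KLF2 and the FOXO factors had 22 of 24 genes tested and none that passed. The expression filter was met in both genotypes by 19, only through the Rroid-deficient libraries by 1 and only through the wildtype libraries by 2. Of the 22, 12 lay higher and 10 lower, with a median log2 fold change of 0.044. That median was -0.077 without Rroid-deficient library 1 and negative too without wildtype library 1. Sesn1, a FOXO target that restrains mTORC1, had counts of 287, 149 and 362 in Rroid-deficient libraries, against 512, 690 and 613 in wildtype libraries. Its means were 38.6 ± 13.1 CPM in Rroid-deficient and 82.4 ± 12.2 CPM in wildtype libraries (log2 fold change -1.09, SE 0.37, unadjusted p 0.0144; adjusted p = 0.895 in edgeR), with no overlap. Cdkn1a, the p21 cell cycle inhibitor, had counts of 1, 25 and 11 in Rroid-deficient libraries, against 170, 73 and 24 in wildtype libraries, which overlapped; it met the expression filter only through the wildtype libraries. S1pr1 had 67.7 ± 23.4 CPM in Rroid-deficient and 96.4 ± 11.7 CPM in wildtype libraries, which overlapped.

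**Figure D4:**
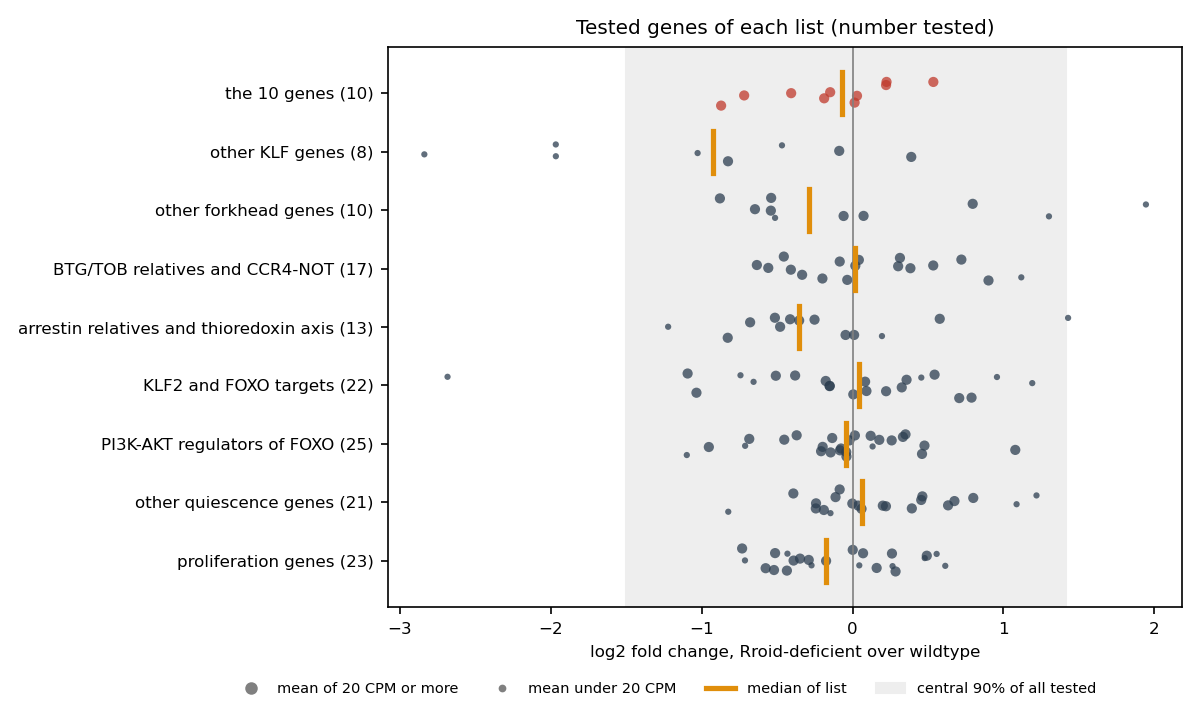
Log2 fold change, Rroid-deficient over wildtype, of every tested gene in each list, with the list's median (vertical bar) and the central 90% of all tested genes (grey band, -1.51 to 1.42). Large points have a mean of 20 CPM or more; the median of the other KLF genes lies furthest from 0, at -0.927, and 4 of its 8 genes met the expression filter only through the wildtype libraries.

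The PI3K and AKT genes that control FOXO localisation had 25 of 25 tested and none that passed. Their median log2 fold change was -0.042, but 0.005 without Rroid-deficient library 3 and -0.113 without Rroid-deficient library 2. The expression filter was met in both genotypes by 23, only through the Rroid-deficient libraries by 1 and only through the wildtype libraries by 1. Akt1 had 29.5 ± 7.14 CPM in Rroid-deficient and 57.2 ± 18.2 CPM in wildtype libraries (log2 fold change -0.95, SE 0.42; adjusted p = 0.914 in edgeR). Pik3r1, the regulatory subunit gene, had 488 ± 56.9 CPM in Rroid-deficient and 631 ± 64.3 CPM in wildtype libraries (log2 fold change -0.37, SE 0.17; adjusted p = 0.914 in edgeR). Of 22 other quiescence genes matched, 21 were tested and none passed. Their median was 0.059, but -0.091 without Rroid-deficient library 1 and 0.215 without Rroid-deficient library 2. Of these 21, 17 met the filter in both genotypes, 2 only through Rroid-deficient libraries, 1 only through wildtype libraries and 1 through neither alone. Peli1 had 209 ± 63.0 CPM in Rroid-deficient and 152 ± 26.0 CPM in wildtype libraries, and Tsc2, an mTORC1 inhibitor, 73.2 ± 17.3 CPM in Rroid-deficient and 45.8 ± 21.5 CPM in wildtype libraries. Of 25 proliferation genes, 23 were tested and none passed. Their median was -0.176, but 0.004 without wildtype library 3 and -0.324 without Rroid-deficient library 2. Of these 23, 18 met the filter in both genotypes, 2 only through the wildtype libraries and 3 through neither genotype alone. Ccnd3, the cyclin D3 gene, had 121 ± 29.7 CPM in Rroid-deficient and 172 ± 5.67 CPM in wildtype libraries, and Cdk6 40.9 ± 9.40 CPM in Rroid-deficient and 68.0 ± 17.0 CPM in wildtype libraries. Both lay lower in every Rroid-deficient library (edgeR adjusted p = 0.916 for Ccnd3 and 0.925 for Cdk6). This was so in 3 of the 23, against 6.33% of all tested genes, and 0 lay higher, against 6.03%. Ccnd2, another cyclin D gene, had 587 ± 94.1 CPM in Rroid-deficient and 490 ± 63.1 CPM in wildtype libraries, which overlapped.

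Of the marker lists described above, none had a gene that passed. Of the 15 NK genes 10 had log2 fold changes below 0 and 5 above 0, where 48.4% of all tested genes lay below 0. Every Rroid-deficient library lay lower in 5 of the 15, against 6.33% of all tested genes. It lay higher in 1, Cd244a, against 6.03%. Cd244a averaged 294 CPM in Rroid-deficient and 231 CPM in wildtype libraries. By the smallest p in the NK list, Gzma had 2560 ± 217 CPM in Rroid-deficient and 4501 ± 866 CPM in wildtype libraries, and Gzmb 209 ± 83.1 CPM in Rroid-deficient and 381 ± 37.3 CPM in wildtype libraries. In the T cell list Cd3g had 63.4 ± 7.44 CPM in Rroid-deficient and 6.22 ± 1.91 CPM in wildtype libraries, and Cd3d 49.2 ± 22.4 CPM in Rroid-deficient and 6.79 ± 1.85 CPM in wildtype libraries. Both T cell genes lay higher in every Rroid-deficient library. Cd22 had 5.80 ± 5.93 CPM in Rroid-deficient and 6.53 ± 2.69 CPM in wildtype libraries, and Cd79a 2.72 ± 3.37 CPM in Rroid-deficient and 4.13 ± 3.31 CPM in wildtype libraries. Itgax had 406 ± 30.3 CPM in Rroid-deficient and 463 ± 44.3 CPM in wildtype libraries, and Csf1r 1.79 ± 1.55 CPM in Rroid-deficient and 2.74 ± 1.40 CPM in wildtype libraries. Alas2 had 1.25 ± 1.59 CPM in Rroid-deficient and 9.54 ± 5.77 CPM in wildtype libraries. Hbb-bs had 2.16 ± 0.958 CPM in Rroid-deficient and 2.02 ± 1.51 CPM in wildtype libraries. Alas2 and Cd79a met the expression filter only through the wildtype libraries, which favours genes that are lower in Rroid-deficient libraries.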

How the data were processed

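Per the labels' protocols, libraries came from Ovation V2 amplification and KAPA reagents and were read from 1 end; whether strand was used is not stated. Trimmomatic 0.33, DESeq2, TopHat2 2.1.0 and HTSeq 0.6.1 are named in the submitters' processing notes, with builds NCBIM37 and mm9 and no settings. The authors deposited raw counts of reads per Ensembl gene, 1 file per library; 5 closing rows that name no gene held 80.0% to 84.4% of reads listed and were left out. Symbols (32919 of 37991 genes), exonic lengths and overlaps came from GENCODE annotation of GRCm38 and promoters from RefSeq, another build than the counts.

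The fit used edgeR 4.0.16 in R 4.3.3 with filterByExpr, TMM and genotype alone, and all 6 libraries. The threshold was 0.05 on the adjusted p. A run on simulated data had larger changes and less spread than found here. It does not tell what the fit can detect in these libraries. CPM use TMM-scaled library sizes, summed over the tested genes. The floor for a gene at 0, taken as 3 reads, was 0.322 to 0.489 CPM and covers counting error only. The SE was derived from the F statistic. All library pairs differed beyond sampling noise (chi-square over degrees of freedom at least 19.2). The 10 genes and the lists were chosen with earlier results of these data known. Named were the 10 genes, Id2, and the 3 most alike genes for the 3 of highest CPM. Per list, named were the passing genes (up to 4) or else the 2 with the smallest p among those averaging 2 CPM or more. Gm15441, Klf8, Klf9, Klf10, Foxo4, Tob1, Mlxip, Mlx, Arrdc4, Txnrd2, S1pr1, Ccnd2, Cd244a, Klf4, Klf11 and the genes at or near 0 were picked with their values in view. The alternatives tried were RLE factors, no TMM factor, DESeq2 1.42.0, limma-voom (limma 3.58.1) with and without sample weights, no or a stricter filter (10 counts in 3 libraries and a mean of 2 CPM), libraries left out, a replicate block and a threshold of 0.1. Figures used matplotlib 3.10.9.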

Additional observations from a re-analysis of the deposited data

How the results depend on the processing

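None of the 10 genes passed under any of the 16 alternatives, and Txnip, Foxo3, Klf2, Klf3 and Klf13 kept their direction in all of them. Log2 fold changes ranged from -0.985 to -0.71 for Txnip (adjusted p 0.0536 to 0.999), -0.861 to -0.636 for Foxo3, -0.518 to -0.276 for Klf2, 0.039 to 0.37 for Klf3 and 0.03 to 0.75 for Klf13. With each library left out in turn, Klf6 ranged from -0.118 to 0.11, Foxo1 from -0.363 to 0.014, Foxp1 from -0.078 to 0.393, Btg1 from -0.297 to 0.212 and Btg2 from -0.274 to 0.033, each range including 0. Klf6 also turned with library sizes alone (-0.004) and limma-voom (-0.001), and Btg1 without replicate 1 of both genotypes (-0.104). The count of genes passing, 2 in edgeR, was 64 with DESeq2, 1 with limma-voom, 8 with sample weights, 98 with no filter, 0 without replicate 1 of both genotypes and 0 to 0 with any 1 library left out; the causes were not tested. Among the pathway lists, 1 gene passed with DESeq2 and 1 with no filter, Cnot6l each time, against 0 in edgeR. Correlations of same-numbered deviations were 0.034, -0.014 and 0.064, and those of other pairs ran from -0.077 to 0.062. Rroid-deficient 1 and 3 correlated best with the wildtype library of their number, and Rroid-deficient 2 with wildtype 1. With all values this small, they do not show whether the replicate numbers pair the libraries. With the replicate block 0 genes passed. Depth and spread limit precision: at 100 CPM or more the typical (median) SE on the log2 scale was 0.25, and from 20 to 100 CPM it was 0.48.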
